A study of Mus musculus with 18 samples.

Results

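The effect of busulfan on mouse testes kept in culture with 10 μg/mL alginate oligosaccharides (AOS) was examined by comparing 3 RNA-seq libraries of testes from busulfan-treated mice (BA10) with 3 libraries of testes from untreated mice (A10). These are 6 of the 18 libraries of the series, taken by their treatment labels. Busulfan is an alkylating drug that crosslinks DNA, and AOS are short sugar chains cut from the alginate of brown algae. BA10 testes came from ICR mice injected once with busulfan (40 μg per g body weight) when 3 weeks old and were taken 2 weeks later. A10 testes came from ICR mice that received no busulfan and were taken at the same time. Both groups were cultured for 48 h in DMEM/F12 medium with 10% fetal bovine serum and 10 μg/mL AOS, so AOS is shared by the groups and its own effect is not part of the comparison. The other 12 libraries are the same pair of conditions cultured without AOS (A0 and B0) or with 50 μg/mL (A50 and BA50). The methods give 6 testes per treatment and 3 repeats of the culture, without saying how the testes were divided among libraries, so the spread between libraries may be partly technical.

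The testis makes sperm in ordered steps. Stem spermatogonia (SPGs) renew themselves and give rise to differentiating SPGs, which divide by mitosis and, under retinoic acid and STRA8, enter meiosis as spermatocytes (SPCs). Spermatocytes pair their chromosomes along the synaptonemal complex, divide, and become spermatids (STs), which exchange histones for protamines. Sertoli cells (SCs) nurse the germ cells inside the tubules, and Leydig cells (LCs) outside the tubules make testosterone. Busulfan is known for destroying germ cells.

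Values are FPKM, the fragments of a gene scaled by its length and by the size of the library. The sums of FPKM per library ranged from 463970 to 511274, and 14483 to 14845 genes had at least 1 FPKM. The number of reads behind the values is unknown, so precision was judged from the 3 libraries of a group. Pearson's r across genes, on log2(FPKM + 1), was 0.981 to 0.992 within BA10, and 0.992 between A10 replicates 1 and 2. A10 replicate 3 stood apart, and its r was 0.962 with replicate 1 and 0.968 with replicate 2. Its 27 listed Sertoli genes summed to 2155 FPKM against 4794 and 4229 in the other A10 libraries. Its 28 late spermatocyte genes summed to 4974 against 2976 and 3213. Its hypoxia genes summed to 2701 FPKM, against 1330 and 1415. The heat shock gene Hspa1a was at 57.3 FPKM in this library and at 0.79 and 0.23 in the others of its group. The testis label was checked against marker genes of other tissues. Of 10 epididymis and 10 skeletal muscle genes in the table, 1 each reached 1 FPKM in 3 or more of the 6 libraries. More genes of the other lists did so, namely 7 of 10 for simple epithelium, 5 of 10 for fat cells and 3 of 8 for erythrocytes. The fat cell gene Fabp4 ranged from 35.9 to 106 FPKM over the 6 libraries, and the hemoglobin gene Hba-a1 from 5.23 to 20.6 FPKM. Which cells these transcripts came from was not tested.

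In BA10, genes of early SPCs were far lower than in A10. Most genes of the differentiating SPG list were lower too, genes of STs were not lower as a group, and most rises in somatic genes were small. Of 14891 genes tested, 2325 were lower in BA10 and 610 were higher (limma, adjusted p at most 0.05), which is 15.6% and 4.1% of the genes and 19.7% together. The falls were also larger. Among the genes that fell 599 changed at least 2-fold, and among those that rose 39 did. At the limits named in the study's methods (adjusted p at most 0.001 and a log2 change of at least 1), 469 genes fell and 2 rose, namely Golph3l and an added gene model without a symbol. All 3 BA10 values lay below all 3 A10 values for 3021 genes (20.3%) and above them for 1694 (11.4%), together 31.7%. With the libraries scaled by the median of ratios, 2022 genes fell and 1282 rose, and with quantile normalization 2194 fell and 1088 rose.

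The rises depended on single libraries and the falls much less. Without A10 replicate 3, 177 genes rose and 2040 fell, and 24.6% of the 610 rises but 79.9% of the 2325 falls were called again. A10 replicate 3 had the lowest A10 value in 87.4% of the genes that rose, against 53.1% of all genes tested. The rises came to 207 without BA10 replicate 1, 302 without BA10 replicate 3 and 1315 without A10 replicate 1, and to 35 when the fit held only the 6 libraries, where 1082 genes fell.

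The 12 largest falls with groups that did not overlap were mostly in genes of the germ line. Tex101, whose product sits on the germ cell surface and is needed for sperm migration in the oviduct, led them. It lies on chromosome 7 (24668012 to 24672050, GRCm38.p6). Tex101 was at 111, 100 and 90.5 FPKM in the A10 libraries and at 0.99, 0.92 and 1.49 FPKM in BA10, a log2 change of -5.58 ± 0.13 (SE, adjusted p = 1.16e-12). No other tested gene had a smaller adjusted p. After Tex101 came Stra8, Mov10l1, Piwil1, Hormad1, Dazl, Lypd10, Slc25a31, Cers3, Stk31, Ube2t and Sycp3, with log2 changes from -4.29 to -3.16. Cers3, a ceramide synthase for very long acyl chains, had a mean of 20.4 FPKM in A10 and 1.30 FPKM in BA10. Each of the 12 kept its call in all 18 alternatives tried, the fit of only the 6 libraries included.

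Genes of the step into meiosis were lower in BA10. Stra8, the retinoic acid target that starts meiosis (chromosome 6, 34920163 to 34939344), was at 19.5, 26.7 and 14.2 FPKM in A10 and at 0.05, 0.10 and 0.00 FPKM in BA10, a log2 change of -4.29 ± 0.20 (SE, adjusted p = 3.14e-09). Stra8 was thus near 0 in every BA10 library. Meioc, which holds germ cells in the meiotic program, was at 28.6, 28.1 and 27.2 FPKM in A10 against 4.74, 8.51 and 4.38 FPKM in BA10 (log2 change -2.12, adjusted p = 1.51e-05). Of the 12 differentiating SPG genes tested, 8 fell and none rose, with a median log2 change of -0.83 against 0.03 for all genes tested. The share of all genes tested that fell was 15.6%. The others that fell were Sohlh2, Rhox13, Dnmt3b, Dmrtb1, Ythdc2 and Prdm9, the last being the factor that marks recombination sites. Kit, the receptor for the Sertoli cell signal Kitl and also present in LCs, did not pass (log2 change -0.47, adjusted p = 0.273). Ccnd2 was at 30.1 ± 3.09 FPKM (SD, n = 3) in A10 and 29.7 ± 2.73 FPKM (SD, n = 3) in BA10.

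Fewer of the genes of stem SPGs could be measured. Of 20 listed, 11 passed the filter of 1 FPKM in 3 libraries, and 3 of those fell, against 15.6% of all genes tested. Sohlh1, a transcription factor of early differentiation, was at 3.07, 2.74 and 2.67 FPKM in A10 and at 0.13, 0.00 and 0.05 FPKM in BA10. Lin28a, which blocks let-7 maturation and marks undifferentiated SPGs, went from 2.34, 3.15 and 2.22 FPKM to 0.10, 0.09 and 0.09 FPKM. Id4, an inhibitor of differentiation found in the stem cell pool and in other testis cells, was at 11.7, 9.81 and 11.8 FPKM against 3.34, 3.16 and 3.40 FPKM, and its groups were well apart. The log2 changes of Sohlh1, Lin28a and Id4 were -1.85, -1.70 and -1.49 (adjusted p = 1.04e-06, 1.85e-07 and 5.10e-07). The other 8 tested genes did not pass. Etv5, a GDNF-responsive transcription factor also present in SCs, was at 11.25, 8.46 and 6.07 FPKM in A10 and at 11.95, 10.5 and 12.2 FPKM in BA10 (log2 change 0.42, adjusted p = 0.102). Tspan8 was at 10.6, 6.08 and 1.95 FPKM against 12.9, 7.27 and 6.08 FPKM. The niche receptors Gfra1 and Ret were low in both groups. Gfra1 was at 1.68, 1.87 and 2.11 FPKM in A10 and at 1.30, 2.24 and 1.32 FPKM in BA10. In such bulk tissue, fewer cells of a type and less RNA per cell cannot be told apart.

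Early spermatocyte genes fell most as a group. Of 21 tested, 19 fell and none rose, with a median log2 change of -1.61 (15 to 19 fell when single libraries were left out). Among all genes tested, 15.6% fell and 4.1% rose. Sycp3, an axial element of the synaptonemal complex, was at 137, 116 and 116 FPKM in A10 and at 12.7, 14.8 and 11.3 FPKM in BA10 (log2 change -3.16 ± 0.17 SE, adjusted p = 9.21e-09). Hormad1, which marks unsynapsed axes, was at 64.7, 62.6 and 49.3 FPKM against 3.18, 4.88 and 4.23 FPKM (log2 change -3.56, adjusted p = 2.1e-08). Spo11, the enzyme that cuts DNA to begin recombination, went from 7.61, 6.76 and 8.36 FPKM to 0.60, 0.79 and 1.30 FPKM (log2 change -2.19, adjusted p = 4.25e-06). In each of these genes every BA10 library was several times below every A10 library. Tex12, Sycp2, Dmc1 (the meiotic recombinase), Meiob, Zcwpw1, Hormad2 and Tex11 fell by log2 changes between -3.02 and -2.02.

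Other members of the same structures had smaller log2 changes. Sycp1, which bridges the paired axes, was at 38.7, 38.4 and 31.3 FPKM in A10 and at 13.7, 23.2 and 9.25 FPKM in BA10, a log2 change of -1.27 (adjusted p = 0.0127). Syce1 fell by 0.84 on the log2 scale, while its partners Syce2 (log2 change -0.25, adjusted p = 0.518) and Syce3 (-0.55, adjusted p = 0.209) did not pass. Rec8, a meiotic cohesin, was at 7.41, 9.82 and 14.7 FPKM in A10 and 9.62, 18.2 and 9.91 FPKM in BA10, so its groups overlapped. The crossover proteins Msh4 and Msh5 fell by 0.75 and 0.78 on the log2 scale.

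**Figure D1:**
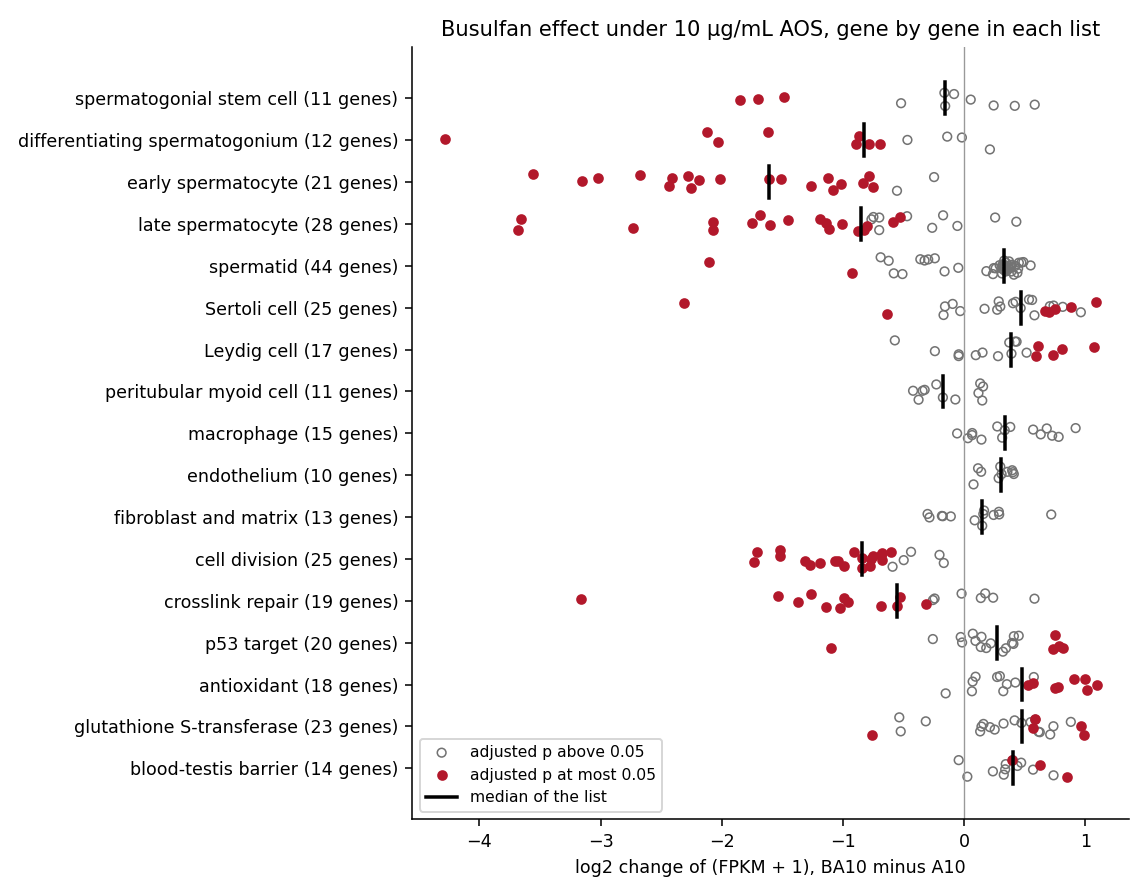
Log2 change of (FPKM + 1) between BA10 and A10 (x axis) for every tested gene of 17 lists (rows); each point is a gene, filled where its adjusted p is at most 0.05, and the black bar is the median of the list. The medians run from -1.61 for early spermatocyte genes to 0.48 for antioxidant genes, and 42 of the 44 spermatid genes are open points.

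Promoters of 4 of the genes with the largest falls are printed here because hexamer CACGTG, the palindromic E-box, occurs in each. Windows cover 250 bases before to 50 after the transcription start in RefSeq (GRCm38.p6), read 5′ to 3′ on the strand of the gene. Capitals mark CACGTG and CCGTT or its reverse complement.
Piwil1, chr5:128735996-128736295, strand +: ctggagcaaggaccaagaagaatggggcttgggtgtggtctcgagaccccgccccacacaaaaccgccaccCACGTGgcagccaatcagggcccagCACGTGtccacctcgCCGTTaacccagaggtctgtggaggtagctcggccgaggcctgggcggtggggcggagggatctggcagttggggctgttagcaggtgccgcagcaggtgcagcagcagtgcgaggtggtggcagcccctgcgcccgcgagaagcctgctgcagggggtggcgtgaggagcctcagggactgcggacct
Hormad1, chr3:95559427-95559726, strand +: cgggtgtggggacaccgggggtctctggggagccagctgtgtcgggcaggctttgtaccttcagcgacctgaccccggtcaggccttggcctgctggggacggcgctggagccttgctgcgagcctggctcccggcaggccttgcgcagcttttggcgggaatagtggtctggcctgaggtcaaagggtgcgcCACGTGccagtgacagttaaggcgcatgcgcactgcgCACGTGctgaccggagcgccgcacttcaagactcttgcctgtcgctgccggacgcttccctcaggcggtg
Slc25a31, chr3:40708621-40708920, strand +: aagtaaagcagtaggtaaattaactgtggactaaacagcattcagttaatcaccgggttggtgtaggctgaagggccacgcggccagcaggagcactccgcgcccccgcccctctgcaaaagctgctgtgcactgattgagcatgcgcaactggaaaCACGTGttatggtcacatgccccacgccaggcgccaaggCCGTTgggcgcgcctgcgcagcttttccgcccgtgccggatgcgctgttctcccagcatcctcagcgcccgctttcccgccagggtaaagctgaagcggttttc
Sycp3, chr10:88459337-88459636, strand +: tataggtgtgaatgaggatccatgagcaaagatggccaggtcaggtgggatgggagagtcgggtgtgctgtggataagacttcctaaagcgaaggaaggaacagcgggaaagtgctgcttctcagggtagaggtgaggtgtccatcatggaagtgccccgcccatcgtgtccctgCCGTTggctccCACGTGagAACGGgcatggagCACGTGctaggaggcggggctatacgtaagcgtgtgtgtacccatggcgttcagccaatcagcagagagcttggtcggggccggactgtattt
The window of Sycp3 held CACGTG at 2 places and CCGTT at 2, that of Piwil1 held them at 2 and 1, that of Hormad1 at 2 and 0, and that of Slc25a31 at 1 and 1.

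Such windows were at hand for 11292 of the tested genes (14353 windows). CACGTG was found in the windows of 33.8% of the 68 genes that fell by 2 or more on the log2 scale, in 12.3% of all 1852 genes that fell, in 11.5% of the 477 that rose and in 11.3% of all genes. CCGTT was found for 42.6%, 36.2%, 20.5% and 26.3%, in the same order. The NRF1 motif was found for 19.1%, 16.1%, 6.29% and 10.6%. Altogether 15 motifs were searched on both strands, chosen after the values were known, and a match is only a description of the letters in the window. In the order of the 68 genes and of all genes, AACNGNC was found in 55.9% and 38.3%, CCGTTA (which contains CCGTT) in 10.3% and 4.48%, CNCCTCAG in 25% and 11%, TGACG in 17.6% and 32.8%, TGACGTCA (which contains TGACG) in 0% and 3.31%, and TCCCGC in 26.5% and 36.8%. TTCCCGCC (which contains TCCCGC) was found in 5.88% and 4.53%, TCACACCT in 2.94% and 1.10%, TGACNNNGC in 14.7% and 16.5%, the antioxidant response element core in 17.6% and 13.0%, GTTGCCA in 4.41% and 5.51%, and the RFX X-box in 0% and 0.177%.

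Late spermatocyte genes fell less evenly. Of 28 tested, 18 fell and none rose, with a median log2 change of -0.85, while 15.6% of all genes tested fell. Piwil1, the PIWI protein that carries pachytene piRNAs, was at 27.3, 27.4 and 26.7 FPKM in A10 and at 1.29, 1.11 and 1.30 FPKM in BA10 (log2 change -3.66, adjusted p = 4.23e-08). Mov10l1, the helicase that starts piRNA processing, was at 20.9, 20.7 and 13.9 FPKM against 0.47, 0.42 and 0.59 FPKM (log2 change -3.68, adjusted p = 3.94e-10). Neither gene overlapped between the groups. At the other end of the list, Calr3 and Spag6, which act in later cells, had log2 changes of 0.26 and 0.43 and did not pass (adjusted p = 0.533 and 0.337). Without A10 replicate 3, which had the highest sum over this list, 14 of the 28 genes fell, as many as without BA10 replicate 1 or BA10 replicate 3.

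The piRNA pathway as a whole, a list added after the values were seen, had 23 of 24 genes tested, of which 19 fell and none rose (17 to 20 fell when single libraries were left out). Its median log2 change was -1.24, and 15.6% of all genes tested fell. Fkbp6, a chaperone for PIWI loading, went from 23.0, 21.7 and 19.6 FPKM to 1.46, 1.68 and 1.72 FPKM, Tdrd1 fell by 2.73 on the log2 scale, and Pld6, the nuclease on the mitochondrial surface, by 2.14. Mybl1, the transcription factor of pachytene piRNA genes, was at 11.1, 11.1 and 11.6 FPKM in A10 and at 3.28, 2.96 and 2.88 FPKM in BA10 (adjusted p = 7.38e-06). Mael and Tdrd6 fell least among the called genes, apart from Pnldc1, by 0.82 and 0.80 on the log2 scale.

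**Figure D2:**
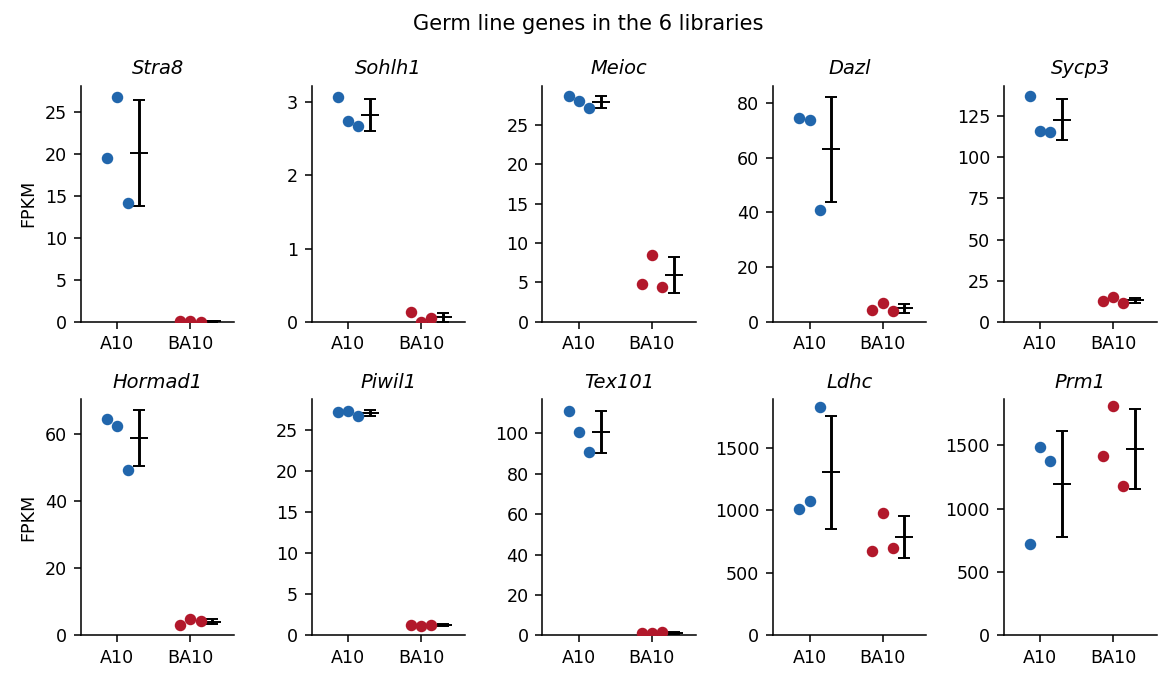
FPKM (y axis, linear, from 0) of 10 germ line genes in the 3 A10 libraries (blue) and the 3 BA10 libraries (red), with the mean and SD of each group beside the points. From Stra8 to Tex101 the groups do not overlap, Ldhc is lower in BA10 but did not pass the test, and the Prm1 values of the groups overlap.

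Genes of STs were not lower as a group. Of 44 tested, 2 fell, none rose, and the median log2 change was 0.33, while 15.6% of all genes tested fell. The protamine gene Prm1 was at 720, 1490 and 1376 FPKM in A10 and at 1418, 1807 and 1181 FPKM in BA10, a log2 change of 0.35 (adjusted p = 0.483). The other protamine and transition protein genes behaved alike, with log2 changes of 0.45 for Prm2, 0.26 for Tnp1 and 0.32 for Tnp2, and none of the 3 passed. The largest spermatid log2 change was 0.55, of Prm3 (adjusted p = 0.237). Libraries of the same group differed widely here, since A10 replicate 1 summed to 5120 FPKM over the list and A10 replicate 3 to 10598, and BA10 ranged from 6932 to 12727. The median was 0.61 without A10 replicate 3, 0.06 without A10 replicate 1 and 0.006 without BA10 replicate 2, and no spermatid gene was called higher when any single library was left out. Of the genes that fell, Taf7l, a TBP-associated factor already on in SPGs, was at 35.5, 36.3 and 23.9 FPKM against 6.24, 9.67 and 4.53 FPKM (adjusted p = 2.83e-05). Zpbp2, an acrosome protein, fell by 0.92 on the log2 scale (adjusted p = 0.0353), and it did not pass without A10 replicate 3 (adjusted p = 0.170).

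Genes that germ cells switch to in meiosis, among them genes of enzymes, were compared with the partners used elsewhere. All the germline members are called isozymes here. Of 19 germline isozymes tested, 6 fell and none rose, while 15.6% of all genes tested fell and 4.1% rose. Of 15 ubiquitous partners none passed in either direction. Under alternatives, 2 partners were higher with median-of-ratios scaling and 1 in the fit of only the 6 libraries. Sample quality weights called 3 higher and 2 lower. With quantile normalization 1 was lower, as was 1 without A10 replicate 1. Slc25a31, the germline ADP/ATP carrier, was at 23.9, 22.9 and 19.9 FPKM in A10 and at 1.32, 1.41 and 1.49 FPKM in BA10 (log2 change -3.27, adjusted p = 1.77e-08). Its partner Slc25a5, on the X chromosome, had a log2 change of 0.43 (adjusted p = 0.0794). Cyct, the testis cytochrome c, was at 62.8, 67.9 and 104 FPKM against 14.5, 18.1 and 15.5 FPKM (log2 change -2.19, adjusted p = 0.000106), and Cycs had a log2 change of 0.12 (adjusted p = 0.581). Pdha2, Cox6b2, Hspa2 and Zfy2 fell by 1.11, 0.99, 0.88 and 0.72 on the log2 scale. Without A10 replicate 3 Cox6b2 and Hspa2 did not pass (adjusted p = 0.105 and 0.0938).

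The other germline isozymes did not pass. Of the partners, Ldha was lower in every BA10 library without passing (log2 change -0.47, adjusted p = 0.0663). The lactate dehydrogenase Ldhc was at 1012, 1076 and 1828 FPKM in A10 and at 674, 981 and 701 FPKM in BA10 (log2 change -0.70, adjusted p = 0.0898). Pgk2 had a log2 change of -0.06 and Gapdhs of 0.34 (adjusted p = 0.908 and 0.514). Rpl10l, the stand-in for the X-linked ribosomal gene Rpl10, had a log2 change of -0.93 (adjusted p = 0.0767), and Rpl10 one of 0.78 (adjusted p = 0.186). Rpl10 has near-identical copies in the genome, so its low values are uncertain.

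Cell division genes were lower in BA10. Of 25 tested, 20 fell and none rose, with a median log2 change of -0.84 (19 to 22 fell when single libraries were left out). Among all genes tested, 15.6% fell. Top2a, which untangles DNA in mitosis, was at 39.4, 41.5 and 38.4 FPKM in A10 and at 11.7, 11.8 and 10.3 FPKM in BA10 (log2 change -1.73, adjusted p = 8.82e-09). Bub1b, a spindle checkpoint kinase, fell by 1.71 on the log2 scale (adjusted p = 7.06e-09). Among S phase genes, Mcm4 and Ccne1 had log2 changes of -0.20 and -0.17 and did not pass.

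Genes that repair the crosslinks busulfan makes were lower, too. Of 19 tested, 12 fell and none rose, with a median log2 change of -0.56, while 15.6% of all genes tested fell. Ube2t, the ubiquitin enzyme that activates the Fanconi anemia pathway, was at 36.6, 37.2 and 35.5 FPKM in A10 and at 3.65, 2.68 and 3.24 FPKM in BA10 (log2 change -3.16 ± 0.10 SE, adjusted p = 4.09e-11). Its values were tight within groups and far apart between them. Among the others, Fancg, Fancd2, Fanci, Slx4, Brca2, Fanca, Brca1, Palb2 and Ercc4 fell by log2 changes between -1.27 and -0.32. Many of these genes also serve replication and meiosis. Ercc1 and Fance, the members with the largest log2 changes (0.24 and 0.58), did not pass.

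Targets of p53 were split. Of 20 tested, 4 rose, 1 fell and 15 did not pass, with a median log2 change of 0.27. The shares among all genes tested were 4.1% and 15.6%. Ccng1, a cyclin and a direct target, was at 38.0, 41.5 and 27.3 FPKM in A10 and at 67.0, 56.0 and 61.0 FPKM in BA10 (log2 change 0.79 ± 0.14 SE, adjusted p = 0.000911). Eda2r, a death receptor of the TNF family, was at 2.14, 2.86 and 2.19 FPKM against 5.76, 3.65 and 5.76 FPKM (log2 change 0.82, adjusted p = 0.00291). Phlda3 and Trp53inp1 rose by log2 changes of 0.75 and 0.73. Pmaip1, which encodes the death factor NOXA, was lower instead, at 7.40, 6.18 and 6.69 FPKM in A10 and 3.12, 1.54 and 3.54 FPKM in BA10 (log2 change -1.10, adjusted p = 0.00265). Cdkn1a, the cell cycle brake p21, spanned 19.3 to 113 FPKM in A10 and 9.05 to 65.3 FPKM in BA10, and its groups overlapped. Leaving out single libraries gave 2 to 5 rises.

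Somatic genes rose in places, with A10 replicate 3 low in most of them. Of 25 Sertoli genes tested, 5 rose, 2 fell and 18 did not pass, with a median log2 change of 0.47. Among all genes tested, 4.1% rose and 15.6% fell. Inha, the inhibin alpha subunit that feeds back on FSH, was at 95.1, 79.7 and 70.7 FPKM in A10 and at 131, 271 and 149 FPKM in BA10 (log2 change 1.09, adjusted p = 0.00932). Kitl, the survival signal for KIT-bearing SPGs, was at 38.5, 33.3 and 29.2 FPKM against 58.1, 59.5 and 48.4 FPKM (log2 change 0.70, adjusted p = 0.00762). Gdnf, the signal for stem SPGs, was at 3.79, 4.53 and 3.44 FPKM against 6.99, 7.58 and 5.84 FPKM (log2 change 0.67, adjusted p = 0.0137). The groups of Inha, Kitl and Gdnf did not overlap. Trf and Ctsl also rose, by log2 changes of 0.75 and 0.88.

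The identity markers of SCs did not pass. Sox9 was at 14.3, 12.3 and 4.71 FPKM in A10 and at 14.8, 21.1 and 17.1 FPKM in BA10 (log2 change 0.81, adjusted p = 0.065), and Clu, among the most abundant Sertoli transcripts, had a log2 change of 0.96 (adjusted p = 0.0598). Without A10 replicate 3, 2 Sertoli genes rose and the median log2 change was 0.07. Without BA10 replicate 2, 2 rose as well, and without A10 replicate 1, 11 rose. Dmrt1, which SCs share with SPGs, was the Sertoli gene that fell most, from 7.25, 9.61 and 6.06 FPKM to 0.82, 0.47 and 0.88 FPKM (log2 change -2.31, adjusted p = 2.64e-07). Tsx, an X-linked gene, fell by 0.64 on the log2 scale.

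Among 17 Leydig genes tested, 5 rose and none fell, with a median log2 change of 0.39, while 4.1% of all genes tested rose. Star, which carries cholesterol into the mitochondrion as the first step of steroid synthesis, was at 236, 178 and 170 FPKM in A10 and at 492, 361 and 373 FPKM in BA10, so that every BA10 value lay above every A10 value (log2 change 1.07 ± 0.21 SE, adjusted p = 0.00219). Scarb1, the lipoprotein receptor that supplies cholesterol, rose by a log2 change of 0.81, Fdxr by 0.73, Tspo by 0.61 and Nr5a1, the master regulator of steroid genes, by 0.59. Star was the 1 Leydig gene that rose without A10 replicate 3 (adjusted p = 0.012) and in the fit of only the 6 libraries (adjusted p = 0.0228). The list also had 1 rise without BA10 replicate 1 (median log2 change 0.07) and 1 without BA10 replicate 3. The hormone Insl3 was at 546, 326 and 442 FPKM against 1011, 354 and 496 FPKM and did not pass (adjusted p = 0.525), nor did Hsd3b1 (log2 change 0.43, adjusted p = 0.39).

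No gene of the lists for peritubular myoid cells (11 tested), macrophages (15), endothelium (10) or fibroblasts and matrix (13) passed in either direction. Their median log2 changes were -0.18, 0.34, 0.30 and 0.15, and 19.7% of all genes tested passed. At an unadjusted p under 0.05, 1 macrophage gene and 1 fibroblast gene were higher and none of the 4 lists had a gene that was lower. Sample quality weights, whose estimate did not converge and which ranged from 0.105 for A10 replicate 3 to 11.2 for A10 replicate 2, called 11 of the 15 macrophage genes and 4 of the 10 endothelial genes higher, and leaving out A10 replicate 3 called none of them. Among the genes that rose most overall was Marco, a scavenger receptor of macrophages, at 16.0, 12.3 and 3.49 FPKM in A10 and at 94.1, 21.2 and 55.1 FPKM in BA10 (log2 change 2.29, adjusted p = 0.0243, and 0.125 without A10 replicate 3). Lyz2, an abundant macrophage gene, had a log2 change of 0.92 (adjusted p = 0.0745).

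**Figure D3:**
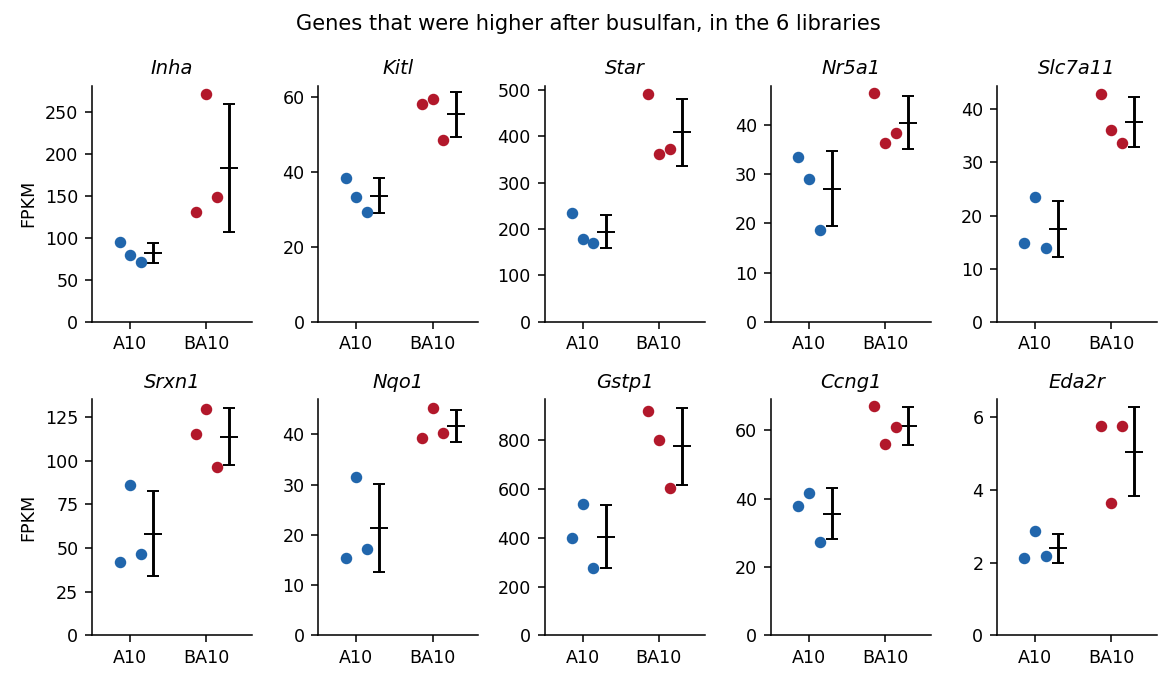
FPKM (y axis, linear, from 0) of 10 genes that were called higher, in the 3 A10 libraries (blue) and the 3 BA10 libraries (red), with the mean and SD of each group. The groups do not overlap in any of them, and A10 replicate 3, the right-hand blue point, is the lowest A10 library for Inha, Kitl, Star, Nr5a1, Slc7a11, Gstp1 and Ccng1.

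Antioxidant genes, many of them targets of NRF2, rose as often as any list. Of 18 tested, 8 rose and none fell, with a median log2 change of 0.48, while 4.1% of all genes tested rose. Slc7a11, which imports cystine for glutathione synthesis, was at 14.9, 23.5 and 13.95 FPKM in A10 and at 42.9, 36.2 and 33.7 FPKM in BA10 (log2 change 1.09, adjusted p = 0.0111). Srxn1, which restores oxidized peroxiredoxins, was at 42.2, 86.0 and 46.6 FPKM against 115, 129 and 96.5 FPKM (log2 change 1.02, adjusted p = 0.00999). Nqo1, a quinone reductase, was at 15.4, 31.5 and 17.2 FPKM against 39.4, 45.3 and 40.2 FPKM (log2 change 1.00, adjusted p = 0.0124). BA10 was above A10 throughout for these 3 genes. Prdx1, G6pdx, Cat, Txnrd1 and Gclc, the rate-limiting enzyme of glutathione synthesis, rose by log2 changes of 0.91 to 0.53.

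Of 23 glutathione S-transferases, the family that conjugates busulfan, 4 rose (Mgst1, Gstp1, Gsto1 and Mgst2) and Gstt3 fell (adjusted p = 0.0282, and 0.136 without A10 replicate 3). Among all genes tested, 4.1% rose and 15.6% fell. Gstp1 was at 400, 537 and 277 FPKM in A10 and at 920, 803 and 605 FPKM in BA10 (log2 change 0.97, adjusted p = 0.0146). Without A10 replicate 3, 1 antioxidant gene and no glutathione S-transferase rose, without BA10 replicate 1 they were 2 and 0, and in the fit of only the 6 libraries 1 and 0. Leaving out other single libraries gave 5 to 9 and 2 to 6. Without A10 replicate 3 the adjusted p was 0.0473 for Srxn1 and 0.0517 for Slc7a11. Of 14 blood-testis barrier genes, 3 rose, among them Nectin2 and F11r by log2 changes of 0.62 and 0.85, and none rose without A10 replicate 3, without BA10 replicate 1, without BA10 replicate 2 or in the fit of only the 6 libraries.

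Few genes passed in the other lists, against 4.1% of all tested genes that rose and 15.6% that fell. Cholesterol synthesis had 1 rise in 20 genes (Ebp, adjusted p = 0.0391, and 0.142 without A10 replicate 3). Cytokines and chemokines had 2 in 16, Ccl3 and Ccl4, the latter with an adjusted p of 0.0108 (limma), and 0.0543 without A10 replicate 3. Heat shock and immediate early genes had 2 falls in 16 (Hsp90aa1 and Ddit3), and 1 without A10 replicate 3. Of 14 hypoxia genes 1 fell (Pfkfb4), and 13 of 14 had log2 changes below 0, with a median of -0.50. These genes were high in A10 replicate 3. Ero1a, for one, was at 120, 114 and 619 FPKM in A10 and at 79.8, 59.9 and 220 FPKM in BA10. The hypoxia median was -0.26 without that library, -0.30 without BA10 replicate 2 and -0.74 without BA10 replicate 3.

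The 12 largest rises with groups that did not overlap were those of Tmem254c, Marco, Itm2a, Gm1993, Golph3l, Fetub, Tspan11, Sema6c, Prss35, Slc40a1, Wfdc17 and Tmem134, with log2 changes of 2.91 to 1.15. Golph3l, which shapes the Golgi membrane, was at 7.31, 3.69 and 2.78 FPKM in A10 and at 14.04, 14.4 and 13.7 FPKM in BA10 (log2 change 1.51 ± 0.23 SE, adjusted p = 0.000253). Slc40a1, the iron exporter ferroportin, was at 14.4, 13.9 and 11.6 FPKM against 30.5, 26.1 and 36.6 FPKM (log2 change 1.16, adjusted p = 0.0165). Fetub, a protease inhibitor of the fetuin family, was at 18.2, 17.2 and 16.0 FPKM against 66.0, 27.6 and 48.4 FPKM (log2 change 1.33, adjusted p = 0.00693). The BA10 libraries were more uneven for Fetub than for Golph3l. Of the 12, Tmem254c, Itm2a, Golph3l and Fetub passed without A10 replicate 3 (adjusted p = 0.035, 0.0119, 0.00119 and 0.0266). Tmem254c has near-identical neighbors, so how its reads were assigned is uncertain.

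Genes of the X chromosome, which is silenced in SPCs, stood slightly higher than the rest. The median log2 change of 649 tested X-linked genes was 0.25 (quartiles 0.02 and 0.40), against 0.02 for 13363 autosomal genes. Of the X-linked genes 6.47% rose and 10.2% fell, against 4.17% and 16.3% of the autosomal genes. The X median was 0.14 and the autosomal median -0.03 without A10 replicate 3, so the distance between them was 0.17 in place of 0.22.

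**Figure D4:**
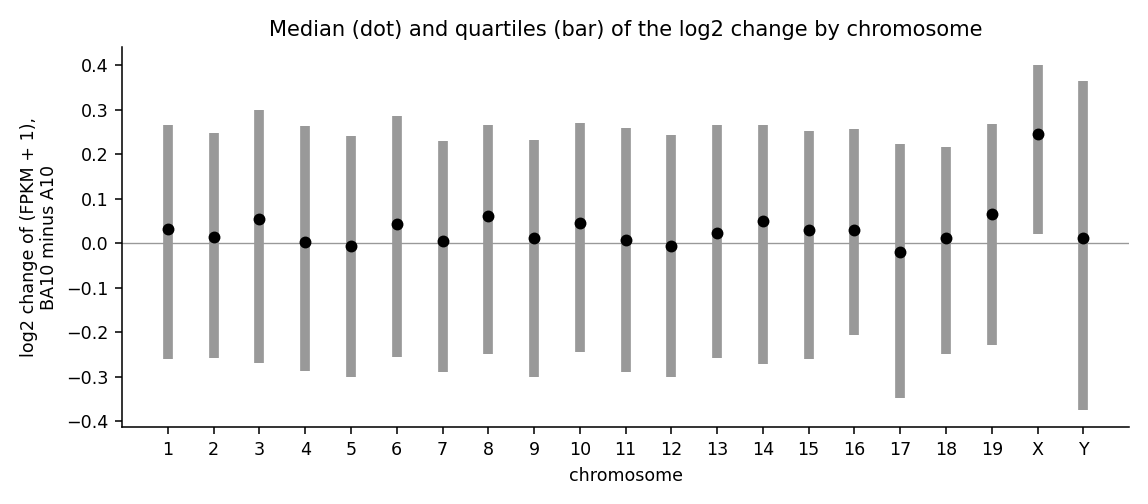
Median (dot) and quartiles (bar) of the log2 change of (FPKM + 1) between BA10 and A10 for the tested genes of each chromosome. The X chromosome has the highest median, 0.25, and the autosomes lie between -0.02 and 0.07.

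The same contrast was then read at the other AOS levels, in libraries that share no sample with these 6. In medium without AOS, 1864 genes were lower after busulfan and 208 higher, which is 12.5% and 1.4% of the genes and 13.9% together. Under 50 μg/mL AOS, 2472 were lower and 589 higher, or 16.6%, 3.96% and 20.6% together. Of the genes that fell under 10 μg/mL, 69.7% also fell without AOS (86.9% of those that fell there) and 85.3% fell under 50 μg/mL (80.3% of those that fell there). Of the genes that rose, 12.3% and 34.6% were shared, which is 36.1% and 35.8% of the rises in the other comparisons. By sign alone, 577 of the 610 rises (94.6%) were also above 0 without AOS and 600 (98.4%) under 50 μg/mL. For the 2325 falls, 99.4% and 99.8% were below 0. The median log2 change of early spermatocyte genes was -1.60 without AOS, -1.61 under 10 μg/mL and -1.63 under 50 μg/mL. Some other lists had medians that differed more between the levels. In the same order, the medians were 0.78, -0.50 and -0.16 for hypoxia genes and -0.04, 0.47 and 0.31 for Sertoli genes. They were 1.10, -0.51 and -0.37 for simple epithelium genes. Without A10 replicate 3, the medians under 10 μg/mL were -0.26 for hypoxia, 0.07 for Sertoli and -0.39 for simple epithelium genes. At 0, 10 and 50 μg/mL AOS, Stra8 changed by -4.68, -4.29 and -4.77 (log2). Tex101 changed by -5.71, -5.58 and -5.39, and Sycp3 by -3.29, -3.16 and -3.39.

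**Figure D5:**
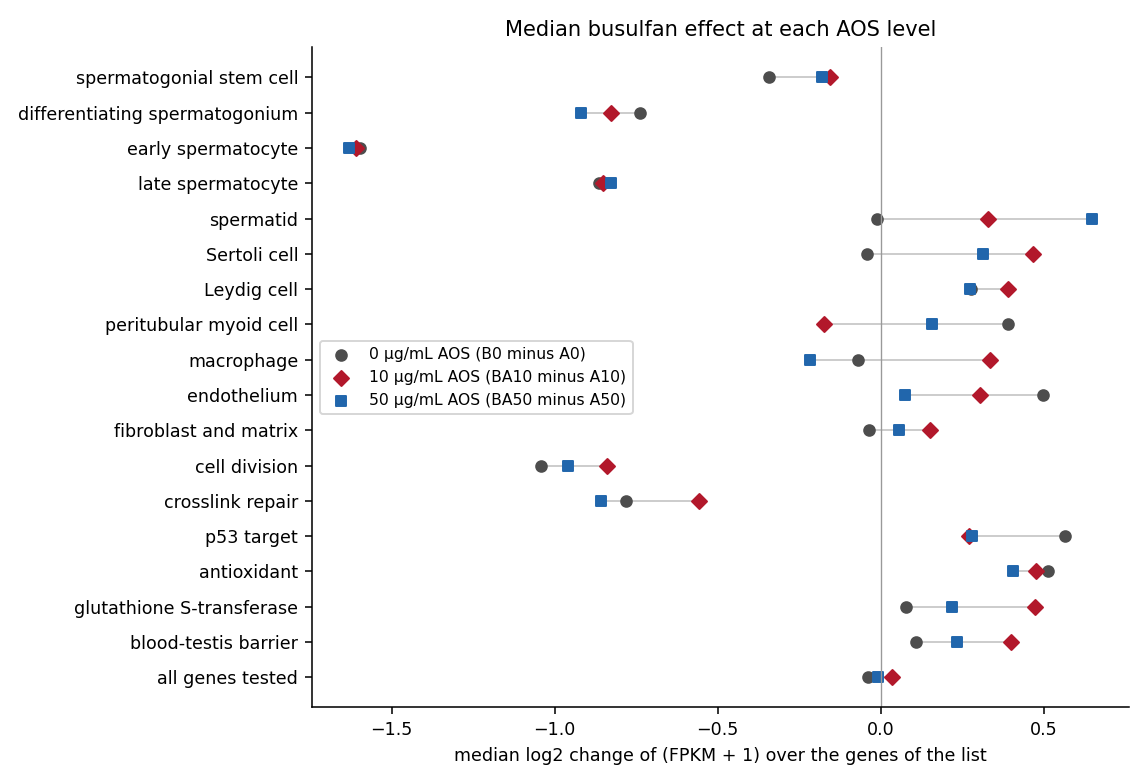
Median log2 change of (FPKM + 1) after busulfan (x axis) over the tested genes of each list (rows) at 0, 10 and 50 μg/mL AOS. The 3 symbols coincide for early spermatocyte (-1.60 to -1.63) and late spermatocyte genes (-0.87 to -0.83), and spread for spermatid genes (-0.01, 0.33 and 0.65).

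The difference between the effects was tested gene by gene. No gene passed in the comparison of the effect under 10 μg/mL with that without AOS (limma interaction contrast, smallest adjusted p = 0.907), where 270 genes were higher and 307 lower at an unadjusted p under 0.05, or 3.87% of the genes. None passed against the effect under 50 μg/mL either (smallest adjusted p = 1.00), where 159 and 122 genes, or 1.89%, were under that unadjusted limit. The difference from the effect without AOS was 0.39 ± 0.29 (log2, SE) for Stra8, 0.13 ± 0.18 for Tex101 and 0.13 ± 0.24 for Sycp3. For Inha it was 1.09 ± 0.38, since this gene had a log2 change of 0.00 without AOS (unadjusted p = 0.0116, adjusted p = 0.907, limma). The smallest unadjusted p among differences above 0 belonged to Oplah, D2hgdh and Abhd2, with differences of 0.71, 1.19 and 0.61. Below 0 it belonged to the epithelial keratins Krt8, Krt18 and Krt19, which were low in both A10 and BA10 (at most 7.21 FPKM) and had no called change under 10 μg/mL AOS. Against 50 μg/mL the smallest p belonged to Marco, Dgcr6 and Nceh1 above 0 and to Gm9112, Ier3 and Psmg4 below 0. A p that misses the limit does not show that the effects were equal.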

How the data were processed

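The 18 libraries were grouped by their labels, 3 in each of 6 groups, and the members and gene lists were chosen with earlier results of these data known. The authors made poly(A) libraries, sequenced them on an Illumina sequencer and deposited FPKM values per gene; no counts were used, so the depth is unknown. The submitters' processing notes name HISAT, Bowtie2, RSEM and the build GRCm38.p5, whereas the supplementary methods name SOAPaligner and RPKM, and which of them made the table could not be settled. The design text of the series gives AOS in mg/kg, the labels in μg/mL, which is used here. Of 22657 genes, 20656 had a symbol in RefSeq (GRCm38.p6), and 1846 were added gene models.

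Genes with at least 1 FPKM in 3 or more of the 6 libraries were tested on log2(FPKM + 1), a scale that understates changes of low genes, in R 4.3.3 with limma 3.58.1 (lmFit, eBayes with trend), all 18 libraries in 1 fit with a coefficient per group and Benjamini-Hochberg adjustment over 14891 genes. The spread had 12 residual and 2.59 prior degrees of freedom. With 3 libraries against 3, an exact permutation test cannot go below 0.1 and was not used. Genes were named by rule: the 12 largest rises and falls among called genes whose groups did not overlap, the 2 largest and 2 smallest log2 changes of each list, the study's markers, the isozyme pairs and the 3 smallest p in each direction of each difference. The other list members and the piRNA, lysosome and iron lists were chosen after their values were seen. Some genes that passed are counted in their lists and not reported by name here. Lists, motifs and plots were handled in Python 3.11.15 (pandas 2.3.3, matplotlib 3.10.9). The MARS and DEGseq methods named in the study need counts and were not run.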

Additional observations from a re-analysis of the deposited data

How the results depend on the processing

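The falls kept their direction and stayed within 1.5 times of 2325 under most alternatives, and the 610 rises did not. Rises and falls came to 1088 and 2194 with quantile normalization, 1282 and 2022 with median-of-ratios scaling, 399 and 2239 with columns scaled to the same sum, and 2506 and 4111 with sample quality weights, whose estimate stopped before it converged and gave A10 replicate 3 a weight of 0.105. They came to 35 and 1082 in the fit of only the 6 samples and to 15 and 591 in that fit with the replicate block. Stricter limits gave 39 and 599 (adjusted p at most 0.05 and log2 change at least 1) and 2 and 469 (adjusted p at most 0.001). Leaving out single libraries gave 177 to 1315 rises and 1806 to 2347 falls. The cause of these shifts was not tested, and the 6-sample fits also hold fewer samples. The block over all 18 samples gave 496 rises and 2208 falls. Deviations of same-numbered A10 and BA10 libraries from their group means had correlations of 0.305, -0.103 and -0.164 across genes. Those of differently numbered libraries ran from -0.385 to 0.319. With 3 libraries per group, these values cannot decide whether the replicate numbers pair the samples. Of the genes of all lists, 32 rose and 98 fell, while 4.1% and 15.6% of all genes tested did. The list genes had 93 rises under quality weights, 6 in the 6-sample fit, and 1 rise and 58 falls in that fit with the block. Leaving out single libraries gave them 9 to 41 rises and 84 to 107 falls. The difference from the effect without AOS had 0 calls, except 1 with a pseudocount of 0.1 (an added gene model, higher) and 4 with quality weights (Krt8, Krt18, Krt19 and Plscr2, lower), and the difference from the effect under 50 μg/mL had 0 calls in every alternative. Of 64 called genes among the 168 named by the rule, 28 kept their call in every alternative, 28 lost it in the 6-sample fit and 21 without A10 replicate 3, and none reversed. The depth is unknown, so how far it limits genes near 1 FPKM cannot be stated.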

Other observations

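A list of 37 lysosome genes was written after the values were seen and is described without a test of the list. Of the 37 genes 9 rose, none fell, the others did not pass and 35 had log2 changes above 0, with a median of 0.35 against 0.03 for all genes tested. Among all genes, 4.1% rose and 7962 of 14891 had log2 changes above 0. Psap, the precursor of the saposins that help digest sphingolipids, was at 725, 688 and 590 FPKM in A10 and at 1047, 965 and 968 FPKM in BA10 (log2 change 0.58, adjusted p = 0.00166, limma). Npc1, which moves cholesterol out of the lysosome, was at 19.8, 17.3 and 19.5 FPKM against 26.9, 27.3 and 29.95 FPKM (log2 change 0.55, adjusted p = 0.0026), and Lipa, the acid lipase, rose by a log2 change of 0.72. Between 4 and 14 of these genes rose when single libraries were left out, with 4 rises without A10 replicate 3, and 3 rose in the fit of only the 6 libraries. The median was 0.16 without AOS and 0.23 under 50 μg/mL.

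Of 19 iron and heme genes, a list also written afterwards, 7 rose and none fell, and 18 had log2 changes above 0. Among all 14891 genes tested, 4.1% rose and 7962 had log2 changes above 0. Fth1, the ferritin heavy chain, was at 3928, 4486 and 3408 FPKM in A10 and at 7896, 5537 and 5398 FPKM in BA10 (log2 change 0.66, adjusted p = 0.0188, limma). Blvrb, a biliverdin reductase, was at 64.3, 74.4 and 62.1 FPKM against 105, 104 and 97.0 FPKM (log2 change 0.61, adjusted p = 0.00832). With single libraries left out, 2 to 7 of the list rose, and 2 rose without A10 replicate 3. Trf is also in the Sertoli list and Ctsl in both the Sertoli and lysosome lists.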
